A study of Caenorhabditis elegans with 2 samples.

Results

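A set of 10 genes of epidermal growth factor (EGF) and Ras signalling in vulval induction were examined for peaks of the zinc finger protein LIN-13 in Caenorhabditis elegans larvae. They were taken by name, lin-3, let-23, lin-2, lin-7, lin-10, let-60, lin-45, mpk-1, lin-1 and sur-2, and are 10 of 19973 protein-coding genes. For each gene, the summits of deposited peak calls were collected over the gene body and 5 kb upstream of any annotated 5' end. All 10 names matched 1 gene each.

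Chromatin immunoprecipitation with sequencing (ChIP-seq) had been done on whole worms at the first larval stage (L1), pooled males and females, as 2 biological replicates of 1 group. The strain, OP49, carries the unc119(ed3) mutation and the transgene wgIs49, which holds lin-13 fused to TY1, EGFP and FLAG tags together with an unc119 rescue. Both replicates carry these alleles, the transgene adds tagged LIN-13 to the animals' own, and the labels name no other condition, so there was no test between groups of samples. Every cell type of the larva contributed to each value, and how deeply the libraries were sequenced is unknown.

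In vulval development, the anchor cell releases the EGF-like ligand LIN-3, which activates the receptor LET-23 on the vulval precursor cells and, through Ras and a kinase cascade, sets nuclear factors that choose the vulval fate. LIN-13 belongs to the synthetic multivulva (synMuv) class B genes, which keep this pathway from being triggered outside its proper place, and synMuv genes are known to restrain lin-3 in the hypodermis. Induction takes place later in larval life than L1, and the precursor cells are few among the cells of a larva.

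Reproducible peaks in the searched region were found for 5 of the 10 genes, which were Ras, both kinases of the list, 1 of the 3 genes that place the receptor and 1 of the 2 nuclear genes. A reproducible peak is a call of the authors' optimal set by irreproducible discovery rate (IDR), which held 2333 peaks and was identical to the 2333 strongest of 30000 pooled calls. The signal of a call is the peak caller's score against a control, on a scale of its own in each list, and rank 1 is the strongest call of a list. Of the 10 genes, 5 had a reproducible summit in the gene body or 5 kb upstream (let-60, lin-45, mpk-1, lin-7 and sur-2), against 19.5% of all protein-coding genes. A summit was counted by position alone. Another gene's 5' end was nearer for 3 of the 6 summits, those at lin-7 and let-60 and the farther one at sur-2. The regions searched were long, with a median of 14636 bp against 7024 bp for all genes, and of the 6691 genes with between 7862 and 29426 bp searched, as for the 10, 25.6% had such a summit. Within 500 bp of a 5' end, 3 of the 10 had one (lin-7, lin-45 and sur-2), against 8.62% of all genes. The 10 had a median of 2.5 annotated 5' ends against 1.0 for all genes, so their promoter windows could cover more sequence. The 8.62% is not matched for this, and lin-45 was counted through an internal 5' end.

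The 5 genes without a reproducible summit were the ligand gene lin-3, the receptor gene let-23, lin-2, lin-10 and lin-1. None of these had a pooled call with a q-value under 0.05, while the other 5 did, against 25.5% of all genes. Those 5 could not fail this threshold, since each of the 2333 calls in the IDR set met it. The looser threshold thus added none of the 10 genes. Within 500 bp of a 5' end it also added none, and left lin-7, lin-45 and sur-2, or 3 of the 10, against 11.2% of all genes. Neither share of all genes is matched for the length searched or the number of 5' ends. Any pooled call at all was found for each of the 10, and for 81.2% of all genes.

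Counted per base, the 152.2 kb searched for the 10 genes held 6 reproducible summits, which is 3.94 per 100 kb with an exact 95% Poisson interval of 1.45 to 8.58. Over the searched regions of all protein-coding genes the density was 2.42 per 100 kb, inside that interval. Pooled calls of any strength came to 55, or 36.1 per 100 kb (27.2 to 47.0), against 30.3 over all genes. The intervals cover counting error only.

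**Figure D1:**
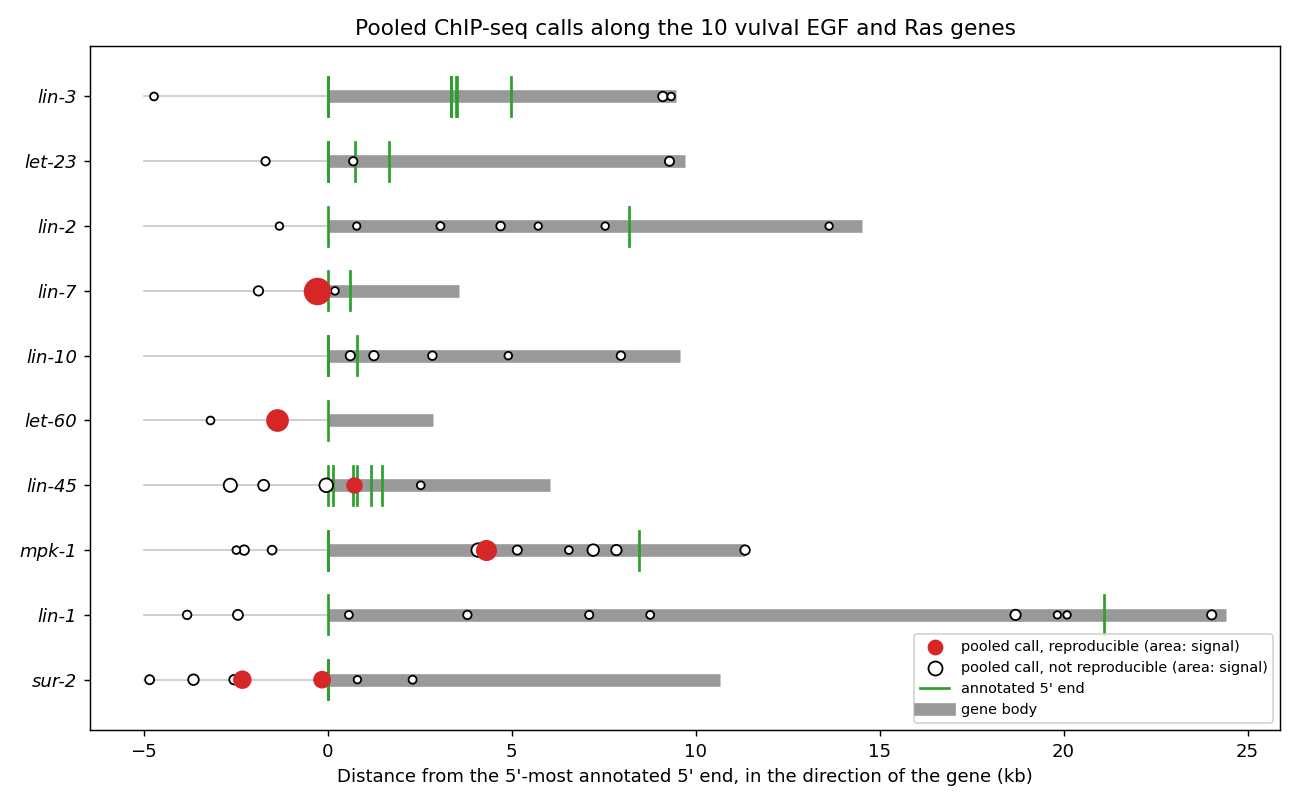
Positions of all pooled calls along the 10 genes, with the distance from the 5'-most annotated 5' end in kb on the horizontal axis, in the direction of the gene, and 1 gene per line. Grey bars are gene bodies, thin lines the 5 kb upstream, green ticks annotated 5' ends, and circles call summits with an area in proportion to the deposited signal. The 6 filled circles are the reproducible summits, of which 3 lie within 500 bp of a 5' end (lin-7, lin-45 and sur-2), 1 lies inside the first intron of mpk-1, and 2 lie farther upstream of let-60 and sur-2.

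Stretches at 4 of the reproducible summits are shown, those at the receptor-placing gene lin-7, at Ras and at both kinases. They are read from the RefSeq copy of WBcel235, the assembly of ce11, on the plus strand, as the longest part with no annotated untranslated base of the window that reaches 100 bp to either side of the summit. The lin-7 stretch is II:14349602-14349737, the let-60 stretch IV:11692380-11692580, the lin-45 stretch IV:6747884-6747965 and the mpk-1 stretch III:4223715-4223915. The lin-45 stretch starts 19 bp to the right of the summit and so does not hold it. The sites at sur-2 are not shown. Capitals mark a cell cycle homology region word (CHR, TTTGAA or TTCGAA, here on the minus strand) in the lin-45 stretch and a tract of T on the minus strand in the mpk-1 stretch.
lin-7: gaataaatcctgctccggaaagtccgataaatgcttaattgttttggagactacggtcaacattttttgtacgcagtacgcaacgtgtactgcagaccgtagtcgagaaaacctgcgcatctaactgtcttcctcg
let-60: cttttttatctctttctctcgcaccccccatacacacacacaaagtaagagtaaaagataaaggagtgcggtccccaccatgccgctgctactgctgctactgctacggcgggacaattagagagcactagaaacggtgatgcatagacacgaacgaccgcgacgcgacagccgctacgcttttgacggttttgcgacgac
lin-45: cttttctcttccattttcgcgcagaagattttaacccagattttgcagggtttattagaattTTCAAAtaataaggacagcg
mpk-1: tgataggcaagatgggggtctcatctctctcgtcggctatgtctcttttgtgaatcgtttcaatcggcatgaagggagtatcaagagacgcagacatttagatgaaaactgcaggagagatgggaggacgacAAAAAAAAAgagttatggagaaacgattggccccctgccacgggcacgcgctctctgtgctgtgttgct

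Words were looked for on both strands, and with 6 windows their counts lay near the shares over all windows. An E2F-like word was in none of the 6 such windows at reproducible summits of the 10 genes, and was in 6.77% of the windows at all 2333 reproducible summits. The same held for the GC-box CCGCCC, which was in 9.39% of all windows. A CHR was in 3 of the 6, at lin-7 (TTCGAA, 48 to 53 bp to the right of the summit, past the end of the stretch shown), at lin-45 (81 to 86 bp to the right) and at the promoter of sur-2, against 45.2% of all windows. The T-tract (TTTTTTTT) was in the mpk-1 window, where 9 A in a row make 2 overlapping matches, and in 14.3% of all windows. G and C made up 52.2% of the let-60 window and 49.3% of the mpk-1 window, more than in 89.6% and 81.1% of all windows, while lin-7 (41.8%) and lin-45 (42.3%) were close to the median of 42.8%. These matches describe the letters in the windows, and nothing follows from them about which factor was present.

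At the top of the pathway, neither the ligand nor its receptor had a call that stood out from the background of the lists. The gene lin-3 (IV, 11054308 to 11063768, plus strand), the EGF-like ligand, had 3 pooled calls in 14.5 kb, and none was within 500 bp of its 7 annotated 5' ends. Its strongest pooled call, in the last part of the gene, had a signal of 22.7 and rank 8889. The strongest calls of the replicate lists ranked 4554 in replicate 1, at the same place, and 23658 in replicate 2. The replicate 2 call was 1290 bp upstream of the nearest 5' end of lin-3, in an exon of another gene. The replicates thus placed their best lin-3 call at different positions, and no list gave one with a q-value under 0.05.

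The receptor gene let-23 (II, 9197512 to 9207213, plus strand) also had 3 pooled calls. The strongest, in an exon near the end of the gene, had a signal of 21.6 and rank 10122, with a replicate 1 call of signal 15.3 and no replicate 2 call within 100 bp. A weaker call with signal 17.9 lay 52 bp upstream of an internal 5' end, within an intron of the longer transcripts, and had a replicate 2 call of signal 11.3 and rank 9977. No let-23 call in any of the 3 lists had a q-value under 0.05.

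LIN-2, LIN-7 and LIN-10 are PDZ domain proteins that bind each other and hold LET-23 at the basolateral membrane of the precursor cells. Of their genes, only lin-7 had a reproducible summit in the searched region, and another gene's 5' end was nearer to that summit. The lin-7 gene (II, 14345844 to 14349406, minus strand) had the strongest peak of the 10 genes, with a pooled signal of 168 and rank 329 (II, 14349540 to 14349863). Its signal was 83.6 in replicate 1, rank 281, and 75 in replicate 2, rank 482, with summits 9 and 0 bp from the pooled one. The lists therefore placed it at nearly the same base. The summit was 296 bp upstream of the 5' end of lin-7, between genes.

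The promoter of lin-7 is shared. The summit lay nearer to the divergent gene elof-1, named for a transcription elongation factor, at 36 bp upstream of its 5' end, and the gene Y54G11A.17 starts at the same base as lin-7. The peak could not be assigned to any of the 3 genes, and if each summit is given only to the nearest 5' end it goes to elof-1. Among the 1346 reproducible promoter peaks it stood 222nd by signal, between those of the ribosomal protein genes rpl-7 (168) and rps-4 (167).

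The partners of LIN-7 had no call of that kind. The gene lin-2 (X, 12399517 to 12414041, minus strand), of the CASK family of scaffold proteins, had 7 pooled calls with signals from 13.95 to 19.0, and the best ranked 14135. None of these lay within 500 bp of an annotated 5' end, and none had a call in replicate 2 within 100 bp. The gene lin-10 (I, 8109746 to 8119316, minus strand) had 5 pooled calls with signals from 14.8 to 22.6, of which 2 were within 500 bp of a 5' end (187 bp upstream and 453 bp downstream). In replicate 2 alone, a call 1872 bp upstream of lin-10 had a signal of 19.1, rank 3744 and a q-value of 0.00708, with no pooled call there and none in replicate 1.

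The Ras gene let-60 (IV, 11688227 to 11691088, minus strand), the switch through which the receptor acts, had 1 reproducible peak, well away from its promoter. Its pooled signal was 112, rank 684 (IV, 11692318 to 11692641). The replicates gave 53.0 in replicate 1 (rank 655) and 65.9 in replicate 2 (rank 616), with summits 38 and 33 bp from the pooled one on opposite sides. All 3 lists thus put it in about the same place in the order.

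The let-60 summit lay 1392 bp upstream of the single annotated 5' end of the gene and 1313 bp upstream of that of ZK792.12, which points the other way, so it sat near the middle of the sequence between the pair. It also lay inside ZK792.10, an annotated non-coding RNA gene. No pooled or replicate call was within 500 bp of the 5' end of let-60.

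Each of the kinase genes had a reproducible peak and at least 1 more pooled call with a q-value under 0.05. The gene mpk-1 (III, 4216763 to 4228108, minus strand), which encodes the ERK-family MAP kinase at the end of the cascade, had 10 pooled calls, or 6.12 per 10 kb searched, more than any other of the 10 genes. Its reproducible peak had a pooled signal of 94.9 and rank 899 (III, 4223653 to 4223976). The summit was in the first intron, of 8247 bp, of 2 of its 3 annotated transcripts, 4172 bp upstream of the 5' end of the remaining one.

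The replicates placed the mpk-1 peak differently. In replicate 2 a call of signal 60.04 and rank 734 had its summit 19 bp downstream of the pooled one, in the direction of the gene. In replicate 1 the call of signal 59.0 and rank 548 had its summit 146 bp upstream of the pooled one, and so no replicate 1 summit was within the 100 bp used to match calls. The intervals of all 3 overlapped. A second pooled call, of signal 47.4 and rank 2387, lay 202 bp upstream of the first. Its summit was 56 bp from that same replicate 1 call and 1 bp from a replicate 2 call of signal 13.9. The single replicate 1 call thus lay between the pooled summits and nearer to the second, while replicate 2 had a call at each. The other 5 reproducible summits had a call within 100 bp in both replicates, as did 93.7% of all 2333, and 9.26% of all had another pooled summit within 250 bp.

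Elsewhere in mpk-1 a weaker call of replicate 1, with signal 23.6 and rank 2475, lay 1197 bp upstream of the internal 5' end with a q-value of 0.0499. The pooled call 52 bp away had a signal of 34.1, rank 3864 and a q-value of 0.0861. Its replicate 2 match had a signal of 13.2, rank 7228 and a q-value of 0.149, so neither passed 0.05. No pooled call was within 500 bp of a 5' end of mpk-1.

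The gene lin-45 (IV, 6742537 to 6748572, minus strand), the Raf kinase at the start of the cascade, had several calls of moderate strength and the weakest of the 6 reproducible peaks. That peak (IV, 6747703 to 6748026) had a pooled signal of 55.1 and rank 1967. Its signal was 19.7 in replicate 1, where it ranked 3646 with a q-value of 0.155, and 34.2 in replicate 2, where it ranked 1720 with a q-value of 0.00018. The peak was thus strong in replicate 2 and did not pass a q-value of 0.05 in replicate 1.

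The lin-45 summit lay 18 bp downstream of an internal 5' end, 1 of 6 annotated for the gene, and in the 5' untranslated region of 1 of its 6 transcripts. It was in the first intron of 2 others and outside the remaining 3. Another 2 pooled calls fell just short of the set, whose weakest peak had a signal of 48.2. One, with signal 47.6 and rank 2374, was 41 bp upstream of the 5'-most end, and replicate calls there had signals of 22.0 and 23.75. The other, with signal 44.65 and rank 2591, was 2648 bp upstream, with replicate signals of 23.0 and 27.6. For each of these 3 sites the q-value was 0.00018 in replicate 2, the lowest of that list, and from 0.0613 to 0.155 in replicate 1. That lowest value was shared by 2785 of the 30000 calls of the replicate 2 list.

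**Figure D2:**
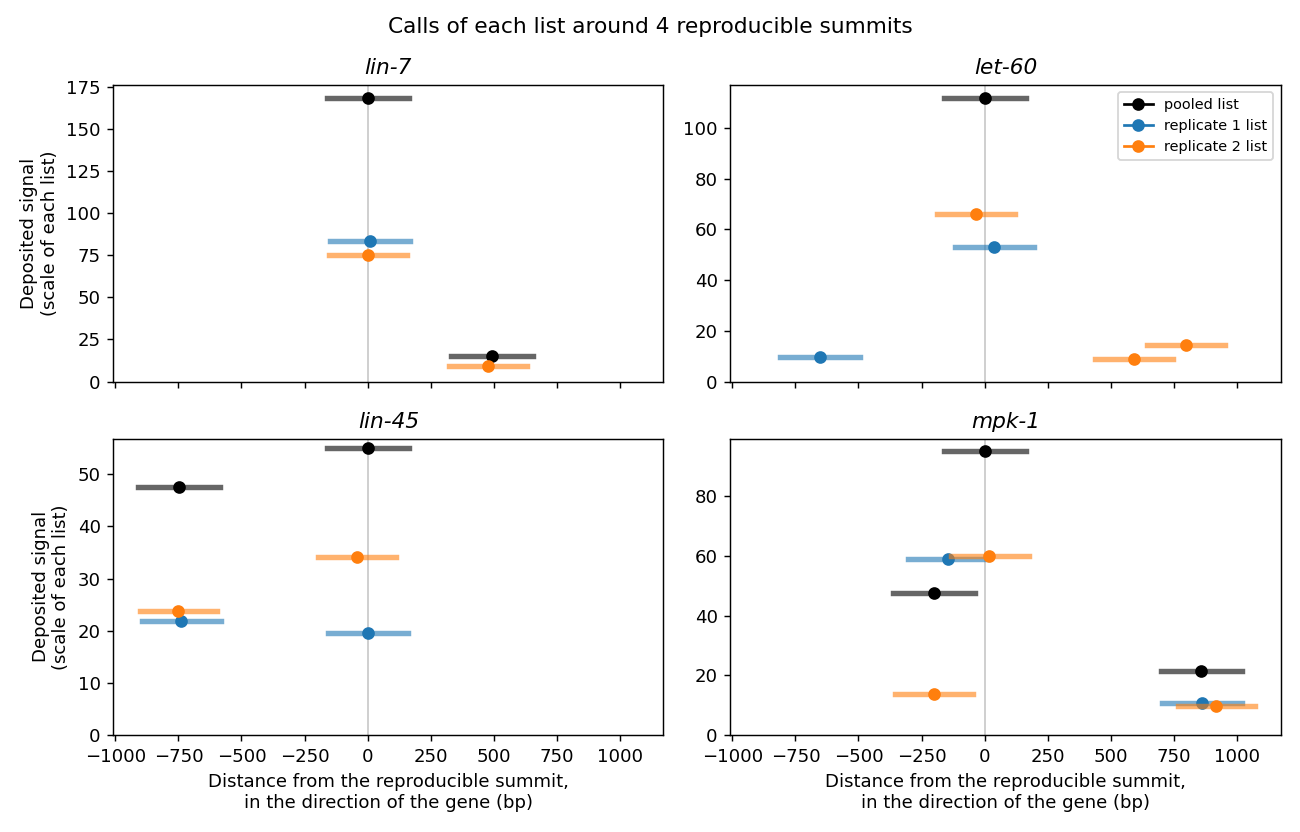
Calls of the pooled list and of each replicate list within 1000 bp of the reproducible summits at lin-7, let-60, lin-45 and mpk-1. The horizontal axis is the distance from the pooled summit in bp, in the direction of the gene, and the vertical axis the deposited signal on the scale of each list, with points for summits and lines for the extent of a call. At lin-7 the replicate summits lie 9 and 0 bp from the pooled one, and at mpk-1 those of replicate 1 and replicate 2 lie 146 bp upstream and 19 bp downstream of the pooled one.

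Of the nuclear genes, sur-2 had 2 reproducible peaks and lin-1 none. The gene sur-2 (I, 14777137 to 14787804, minus strand) encodes a Mediator subunit that is needed for the transcriptional output of the pathway. The peak at its promoter (I, 14787795 to 14788118) had a pooled signal of 64.75 and rank 1568, with 27.4 in replicate 1 (rank 1919) and 36.25 in replicate 2 (rank 1563). Its summit lay 153 bp upstream of the 5' end of sur-2, and no other protein-coding 5' end was within 1000 bp. It was the one reproducible promoter peak of the 10 genes that lay upstream of the gene and at no other gene's promoter.

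The second peak of the region (I, 14789963 to 14790286) had a pooled signal of 71.0 and rank 1380, with 31.2 in replicate 1 (rank 1594) and 36.95 in replicate 2 (rank 1519). It was 2321 bp upstream of sur-2 and 119 bp upstream of uev-1, named for a ubiquitin-conjugating enzyme variant, with F39B2.3 and hinf-1 starting 608 and 915 bp away. By position it belongs to the uev-1 promoter rather than to sur-2.

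The gene lin-1 (IV, 2275861 to 2300286, minus strand), an ETS-family transcription factor that represses vulval fate until MPK-1 phosphorylates it, was the longest of the 10 and had 10 pooled calls in 29.4 kb. Their signals ran from 13.8 to 27.2, and the strongest ranked 5837. None was within 500 bp of an annotated 5' end. One pooled call 2441 bp upstream of the gene, with signal 25.4, had a replicate 2 call of signal 17.5 with a q-value of 0.0206 and no replicate 1 call within 100 bp.

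Across the 5 genes without a reproducible summit, the 28 pooled calls had signals from 13.8 to 27.2 with a median of 17.5. They lie below the weakest reproducible peak by construction, since that set is the top of the pooled list. Of these calls, 3 had a call within 100 bp in both replicates, 12 in replicate 1 only, 4 in replicate 2 only and 9 in neither. Shares over all pooled calls outside the reproducible set are not given, so these counts cannot be read as particular to the 5 genes. The 6 reproducible summits had signals from 55.1 to 168. The median of the whole reproducible set was 79.4, so the peaks of the pathway lay on both sides of it, and the best ranked 329.

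Within each replicate alone, a call with a q-value under 0.05 was found for 4 of the 10 genes in replicate 1 (lin-7, let-60, mpk-1 and sur-2), against 19.9% of all genes. In replicate 2 it was found for 7, the same 4 with lin-45, lin-10 and lin-1, against 32.4% of all genes. These shares of all genes are not matched for the length searched, a median of 14636 bp for the 10 against 7024 bp. The replicate 2 list had more calls with a q-value under 0.05 over the genome, 5192 against 2475. The part of that difference in the calls at lin-45, lin-10 and lin-1 was not tested.

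**Figure D3:**
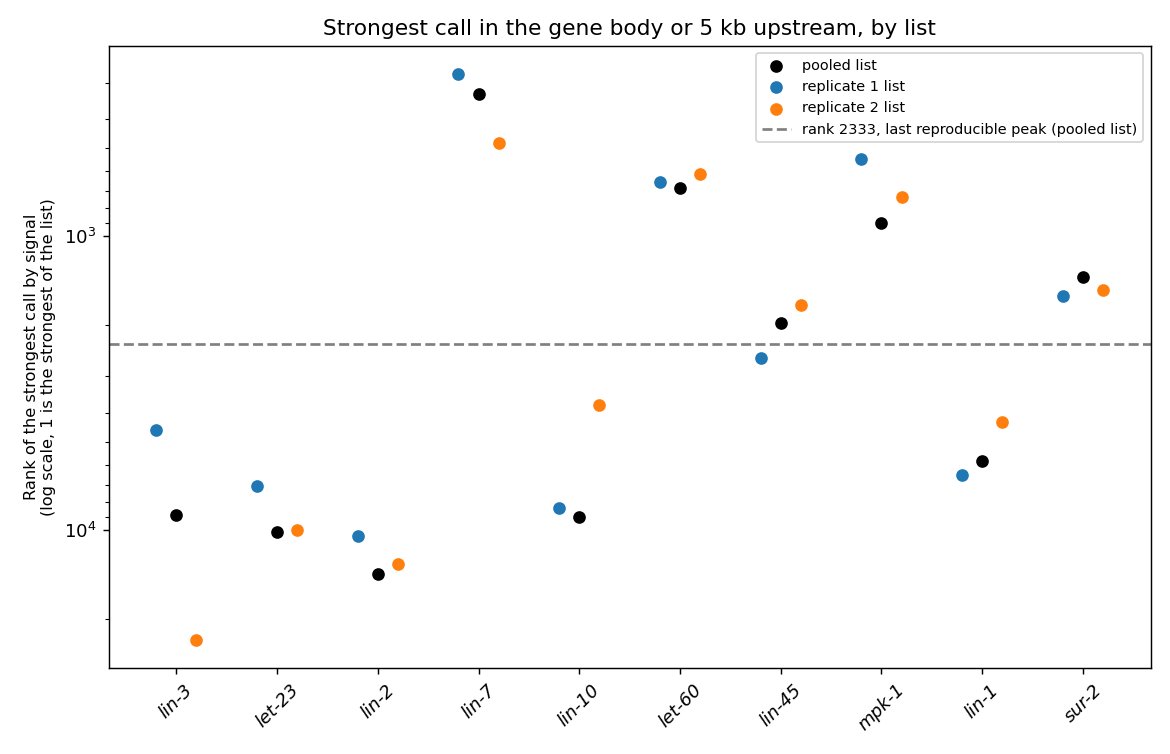
Rank of the strongest call in the gene body or 5 kb upstream for each of the 10 genes, on a log axis with the strongest at the top, in the pooled list (black), the replicate 1 list (blue) and the replicate 2 list (orange). The dashed line is rank 2333, the last reproducible peak of the pooled list. For lin-7, let-60, mpk-1 and sur-2 all 3 points lie above the line, for lin-45 the replicate 1 point lies below it at 2587, and for the other 5 genes all points lie below it. The 3 points of a gene can be calls at different sites.

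Genes that act beside these 10 had reproducible peaks at cnk-1, eor-2, lst-4, lip-1 and gap-2. Of 30 further pathway genes, 29 matched a protein-coding gene name (lst-3 did not), and 2 of the 29 had a reproducible summit within 500 bp of a 5' end, against the 8.62% of all genes. In the gene body or 5 kb upstream, 5 of the 29 had one, or 17.2%, close to the 19.5% of all genes. Neither of these shares of all genes is matched for the length searched or the number of 5' ends. The 432.4 kb searched for the 29 held 6 reproducible summits, or 1.39 per 100 kb, against 2.42 over all protein-coding genes. The exact 95% Poisson interval of 0.509 to 3.02 holds the 2.42 and overlaps the interval of the 10 genes.

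Those at promoters were cnk-1, the connector scaffold of the Raf module, and eor-2, a nuclear protein that acts with the zinc finger protein EOR-1. The cnk-1 peak (signal 65.05, rank 1557) lay 263 bp upstream, with 27.1 in replicate 1 and 41.2 in replicate 2. The eor-2 peak (signal 52.2, rank 2107) lay 203 bp upstream, with 26.4 and 29.3. Both were of the strength of the sur-2 and lin-45 peaks, and neither site had the 5' end of another protein-coding gene within 1000 bp.

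The remaining 4 summits were upstream of negative regulators. The gene lst-4, a target of Notch signalling that lowers EGF signalling, had the strongest peak near any pathway gene, with signal 268 and rank 110, but the summit was 1246 bp upstream of it and 442 bp upstream of ccar-1. A second peak with signal 63.4 lay 540 bp upstream of lst-4, nearer to it than to any other gene. At lip-1, a MAP kinase phosphatase, a peak of signal 88.8 was 3714 bp upstream, 45 bp from the non-coding RNA gene C05B10.21. At gap-2, a Ras GTPase-activating protein, a peak of signal 50.04 was 4656 bp upstream, 8 bp from the non-coding RNA gene ZK899.10 and 14 bp from a tRNA gene, with no replicate 1 call within 100 bp.

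By role, set against the same 19.5% of all genes, 1 of 5 kinase and scaffold genes, 3 of 12 negative regulators and 1 of 6 nuclear effectors and targets had a reproducible summit in the searched region, and none of the 5 adaptor and exchange genes (sem-5, sos-1, soc-1, soc-2, ptp-2) nor rom-1, a rhomboid protease gene for ligand processing. Pooled calls with a q-value under 0.05 that were not reproducible added 4 genes, which made 9 of the 29 against 25.5% of all genes. These were sem-5, the GRB2-like adaptor (signal 36.7, 385 bp upstream), and the Hox gene lin-39 (38.2, 11 bp downstream of a 5' end). The others were sli-1, the Cbl homolog (43.3, 2083 bp upstream), and rom-1 (45.7, 1599 bp upstream and nearer to F26F4.8). The sem-5 call was just under the threshold, with a pooled q-value of 0.0491. In replicate 1 the q-value was 0.784 at sem-5 and 0.607 at sli-1, and lin-39 had no replicate 1 call under 0.05. Only rom-1 passed in both replicates (0.0111 and 0.0265). The shares of all genes given with these counts are not matched for the length searched.

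**Figure D4:**
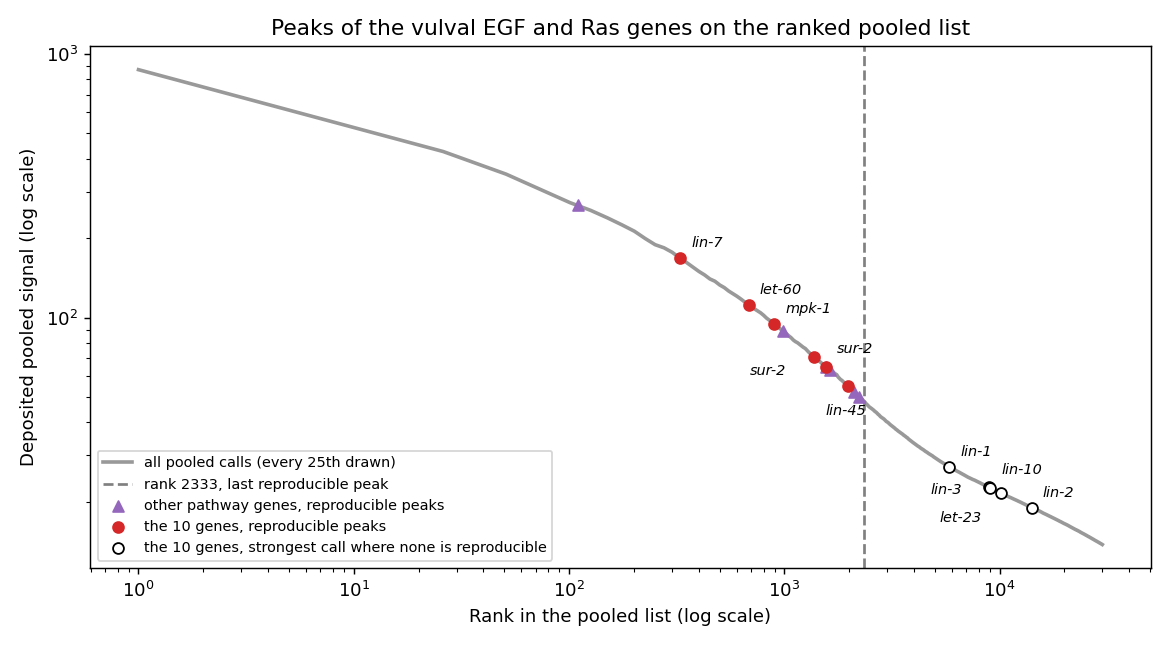
Deposited signal against rank for the pooled list, both on log axes. The grey line shows all pooled calls, filled circles the 6 reproducible summits of the 10 genes, triangles the 6 of the other pathway genes, open circles the strongest call of the 5 genes without a reproducible summit, and the dashed line the last reproducible rank of 2333. The open circles lie between ranks 5837 and 14135, and the filled ones between 329 and 1967. That the filled ones stand above the open ones is by construction, since the reproducible set is the top of the pooled list.

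Promoter peaks of nearly the same pooled signal as those of the pathway came from genes of several kinds. Next to lin-45 were the promoter shared by dkc-1 and ran-1 (55.1), which encode a pseudouridine synthase and the Ran GTPase, and that of cdt-1 (55.05), a replication licensing factor. Next to sur-2 were gln-3, a glutamine synthetase gene (64.8), and Y43F8B.2 (64.7). The likeness is in the deposited signal alone, over 1346 promoter peaks.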

How the data were processed

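Per the labels, 2 biological replicates form 1 group, with fragments of 150 to 350 bp. Per the descriptions deposited with the samples, the authors called 30000 peaks and background calls on each replicate and on both pooled, each against a control alignment, and derived the IDR set from these lists. The sources used here do not give aligner, peak caller, versions or IDR threshold. The deposited signal is a score per call, ranked within each list, and the deposited −log10 q-value was used for a threshold of 0.05.

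Lists in ce11 were used, with all calls inside the chromosome lengths of WBcel235. Protein-coding transcripts of Ensembl release 115 gave genes and 5' ends. Many worm transcripts are trans-spliced, which can put the annotated 5' end inside the transcribed region. Replicate calls were matched to the nearest summit within 100 bp. Assignment was tested on simulated data, with 200 of 200 placed summits assigned correctly. E2F-like words were TTCCCGCC, TTTCCCGC, TTCGCGCC, TTGGCGCC and TTCCCGCG. Analysis used Python 3.11.15, numpy 2.4.6, pandas 2.3.3 and scipy 1.17.1.

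Genes and lists were chosen with earlier results of these data known, so no p-value is given. Named genes were the 10, those with a 5' end within 1000 bp of their reproducible summits, other pathway genes with a reproducible summit, and neighbours in rank. ZK792.10, ZK792.12, ccar-1, C05B10.21, ZK899.10, sem-5, lin-39, sli-1, rom-1 and F26F4.8 were named after their values were seen.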

Additional observations from a re-analysis of the deposited data

How the results depend on the processing

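The number of the 10 genes with a reproducible promoter summit was 3, and stayed at 2 or 3 with windows of 250 and 1000 bp, the 5'-most or nearest 5' end only, pooled calls with a q-value under 0.05 and either replicate's top 2333 calls (2 without replicate 2 and 3 without replicate 1). The genes changed under these counts: lin-7 was lost at 250 bp and with the nearest 5' end only, and lin-45 with the 5'-most end only and without replicate 2, while sur-2 was counted in each of these. With the 1166 strongest peaks it was 1, lin-7. The number with a summit in the gene body or 5 kb upstream was 5, but 2 in the gene body only (mpk-1 and lin-45) and 3 with the 1166 strongest peaks (lin-7, let-60 and mpk-1). It was 4 without replicate 2 and 5 without replicate 1. For the other pathway genes the count of 2 became 1 at 250 bp, 0 with the 1166 strongest peaks and 4 with pooled calls under a q-value of 0.05, since fewer or more calls were counted.

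All 6 reproducible summits had a peak of the same chromosome, width and signal (within 0.1%) in the ce10 IDR list. Both replicates matched 5 of the 6 at 100 and 50 bp, and 6 at 250 bp or by overlap.

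Ranks of the strongest call in the replicate lists alone ran from 4554 to 23658 for lin-3, 7091 to 9977 for let-23, 10473 to 13052 for lin-2, 281 to 482 for lin-7, 3744 to 8409 for lin-10, 616 to 655 for let-60, 1720 to 2587 for lin-45, 548 to 734 for mpk-1, 4300 to 6490 for lin-1 and 1519 to 1594 for sur-2. The replicate calls behind a range can lie at different sites, so a narrow range need not mean the same peak. At lin-45 the replicate 1 call of rank 2587 lay 2641 bp upstream, and the reproducible peak ranked 3646 in that replicate. Depth is unknown, so absence of a call cannot be read as absence of the protein.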
